A study of Mus musculus with 8 samples.

Results

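Genes of elastic fibres and of the matricellular proteins around them were described in mouse mesenchymal stem cells (MSc) that lack the hyaluronan synthases. They were picked by a rule on gene names: fibulins, fibrillins, elastin, emilins, microfibril-associated proteins, lysyl oxidases, latent TGF-beta binding proteins, thrombospondins, tenascins, matrilins, Postn, Tgfbi, the SPARC family and Fn1. The rule uses no measured value, but it was set with earlier results of these data known. The table holds 76557 loci, 49868 of them with a gene name, and 36 carry a name on the list. The other 10 names (Fbn1, Lox, Thbs1, Thbs2, Tnn, Matn4, Postn, Fn1, Mfap1a and Mfap1b) stand beside no row and were not analysed here, so the principal fibrillin, the principal lysyl oxidase, periostin and fibronectin are missing from what follows.

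The 8 libraries came from 8 mice, 4 Has-tKO and 4 wildtype. Has-tKO mice have constitutive knockouts of Has1 and Has3, and their Has2 was deleted in culture by a Cre recombinase that 4-hydroxytamoxifen activates. Wildtype mice were C57Bl6/J. MSc from femur and tibia of both genotypes were grown for 4 passages, received 4-hydroxytamoxifen for 48 h in each of passages 2 and 3, and were harvested at day 7 in osteogenic medium, so the drug was shared by both groups. The sources used here give neither the age and sex of the mice nor the promoter that drives the Cre nor the exact deleted segments. Per the labels' protocols, the loss of Has2 was checked by the authors with an ELISA for hyaluronan and by qPCR.

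Elastic fibres consist of a core of elastin that is cross-linked by lysyl oxidases and laid down on microfibrils, which are polymers of fibrillin. Fibulins bring elastin and lysyl oxidases to the microfibril, and latent TGF-beta binding proteins tether the stored growth factor to it. Matricellular proteins such as Sparc, tenascin C and the thrombospondins are secreted into the matrix but act mainly on cell attachment and growth factor signals, and bone matrix is rich in Sparc (osteonectin). Hyaluronan is a large polysaccharide of the same matrix, and the study asked what its loss does to MSc on the way to bone.

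Levels are FPKM, fragments scaled to transcript length and to library size, with means given ± SD (n = 4 per genotype). The depth of sequencing is unknown. The libraries summed to between 198221 and 259871 FPKM, and 8327 to 10357 named genes reached 1 FPKM. Wildtype 1 stood apart: loci without a gene name held 61.5% of its FPKM and a single locus 30.4%, against 45.4% to 56.4% and 14.2% to 18.6% in the other 7 libraries. Its median-ratio size factor, a library's typical level relative to the others, was 0.684, against 0.990 to 1.11. Has-tKO 4 had the next highest percentage on unnamed loci, 56.4%. For these reasons each comparison was made on the FPKM as deposited and again after division by the size factors, called scaled below. The scaling moved the median log2 fold change of all genes to 0.011, against 0.16 unscaled. Of the targeted genes only Has3 has a named row, at 0.663, 0.577, 0.622 and 0.150 FPKM in Has-tKO 1 to 4 and 0.236, 0.416, 0.466 and 0.394 FPKM in wildtype 1 to 4. Those low and overlapping values check no label.

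The labelled cell type was compared with its markers. The stromal marker Pdgfra lay at 15.6 to 20.6 FPKM in Has-tKO and 12.4 to 20.4 FPKM in wildtype, the bone transcription factor Runx2 at 3.45 to 5.19 FPKM in Has-tKO and 3.36 to 7.39 FPKM in wildtype, and the mineralisation enzyme Alpl at 49.0 to 78.7 FPKM in Has-tKO and 78.0 to 144 FPKM in wildtype. Macrophage genes were also present: Csf1r, the receptor for macrophage colony-stimulating factor, lay at 70.5 to 115 FPKM in Has-tKO and 31.4 to 74.6 FPKM in wildtype. The counts that follow stand beside those over all tested loci, of which 1.58% were higher and 0.192% lower in Has-tKO unscaled, and 1.73% higher and 1.09% lower scaled. Of 18 tested myeloid markers 3 rose in Has-tKO without scaling and 3 with it, of which Cx3cr1 was in both sets. All 18 fold changes were positive in both fits, 18 with an unadjusted limma p under 0.05 unscaled and 15 scaled. Over all 9915 tested gene names 1656 had such a p unscaled and 1834 scaled, and 7262 and 5094 fold changes were positive. The summed level of the myeloid list was 690 to 1120 FPKM in Has-tKO and 405 to 701 FPKM in wildtype. Of 7 tested stromal and osteoblast markers none passed unscaled and 2 fell after scaling (Alpl and the bone sialoprotein gene Ibsp), with sums of 218 to 295 FPKM in Has-tKO and 283 to 580 FPKM in wildtype. Of 6 tested smooth muscle markers 2 rose in both fits (Tagln and Actg2), with sums of 182 to 319 FPKM in Has-tKO and 90.2 to 164 FPKM in wildtype. Of 8 tested chondrocyte markers, a list that shares Matn1 and Matn3 with the genes described here, 1 fell unscaled and 2 after scaling (Col9a1 in both, Sox9 after scaling), with sums of 149 to 224 FPKM in Has-tKO and 157 to 296 FPKM in wildtype. Adipocyte sums (15.8 to 20.1 FPKM in Has-tKO, 10.1 to 17.9 in wildtype) and endothelial sums (5.50 to 6.68 FPKM in Has-tKO, 5.36 to 7.10 in wildtype) were low: no tested marker of either list passed, the fat hormone gene Lep was listed at 0 in all 8 libraries, and the endothelial Emcn reached 0.00763 FPKM at most. What these other cells contribute to the levels given here was not tested, and in bulk RNA fewer cells of a type and less RNA per cell cannot be told apart.

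No gene of the group passed the test in the unscaled comparison, and 3 were lower in Has-tKO after scaling, a fit in which 1.09% of all tested loci were lower: Tgfbi, a secreted fasciclin domain protein that binds collagen and integrins and is induced by TGF-beta, Matn2, a filament-forming adaptor protein, and Efemp2, the fibulin that brings lysyl oxidase to elastin. In scaled FPKM, Tgfbi was 0.533 times, Matn2 0.636 times and Efemp2 0.683 times its wildtype mean. The most abundant gene, Sparc, was 0.711 times its wildtype mean in unscaled FPKM, with no overlap between the groups, but did not pass in either fit. On the other side the microfibril genes Mfap5 and Mfap4 and the lysyl oxidase Loxl4 had every Has-tKO library above every wildtype library. Unscaled, 12% of all tested loci did so, and none of these genes passed the test. Elastin itself and the tenascin Tnxb separated in the same way but were too low to be tested with the others. Neither passed when every named locus above 0 was fitted.

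The counts behind this are as follows. A gene was tested when it reached 1 FPKM in at least 4 of the 8 libraries, which 32 of the 36 did. Eln, Emilin3, Tnxb and Matn1 did not. With limma on log2(FPKM + 1) and an adjusted p under 0.05 over 9916 named loci, 0 of the 32 were higher and 0 lower, where 1.58% of all tested loci were higher and 0.192% lower (1.77% in all). At an unadjusted p under 0.05 the unscaled fit marked 8 of the 32, and 1656 of all 9915 tested gene names. In the scaled fit 0 were higher and 3 lower, where 1.73% of all loci were higher and 1.09% lower (2.82% in all). There 14 of the 32 had an unadjusted p under 0.05, and 1834 of the 9915 gene names. The groups did not overlap, with the Has-tKO libraries higher, for 3 of the 32 unscaled and 3 scaled, where 12% and 7.18% of all loci behaved so. They did not overlap with the Has-tKO libraries lower for 1 of the 32 unscaled (Sparc) and 9 scaled, where 1.53% and 5.76% of all loci did. The median log2 fold change of the 32, Has-tKO minus wildtype, was -0.085 unscaled and -0.27 scaled, with 15 positive and 17 negative values unscaled and 7 positive and 25 negative scaled. With single libraries left out it ran from -0.14 to 0.055 unscaled, changing sign without wildtype 2 and without Has-tKO 4, and from -0.28 to -0.16 scaled. Over all 9915 tested gene names 7262 values were positive and 2637 negative unscaled, and 5094 and 4802 scaled.

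**Figure D1:**
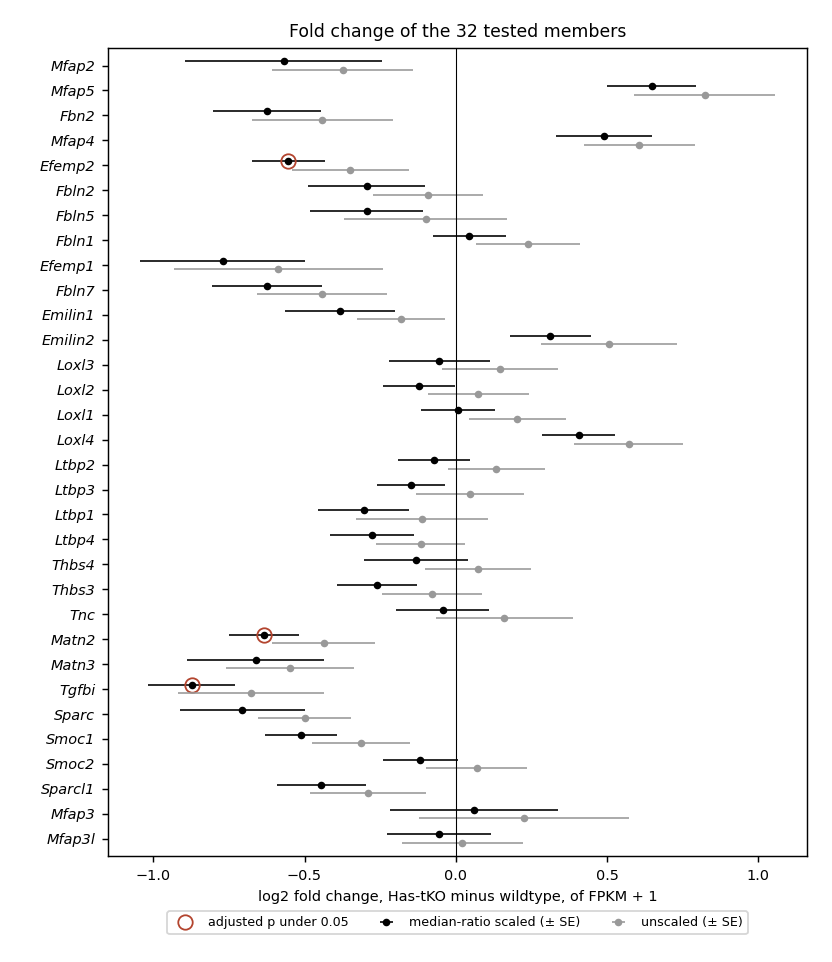
Log2 fold change (Has-tKO minus wildtype, of FPKM + 1) of each tested gene with its standard error, unscaled in grey and after median-ratio scaling in black, ordered by role. Red rings mark an adjusted p under 0.05: Efemp2, Matn2 and Tgfbi, all in the scaled fit, while Mfap5, Mfap4, Emilin2 and Loxl4 lie right of 0 in both.

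The 3 calls rest on few libraries. Leaving out 1 library at a time, the scaled call of Tgfbi held without wildtype 1, wildtype 3 or Has-tKO 3 and ended without each of the other 5, with adjusted p between 0.00676 and 0.081. That of Matn2 held without wildtype 1 or wildtype 3 (0.0288 to 0.093), and that of Efemp2 held only without wildtype 1 (0.036 to 0.158). All 3 fold changes stayed negative in each of these fits. The number of genes called among the 32 ranged from 0 to 5 over these fits with and without scaling, and it was highest in the scaled fit without wildtype 1, with Mfap5 higher and Efemp1, Efemp2, Matn2 and Tgfbi lower. The number called over all 9916 loci moved too, from 10 to 349 over these fits, and was 334 in the scaled fit without wildtype 1. A fit of the 6 libraries other than wildtype 1 and Has-tKO 4 called 4 unscaled (Mfap5 higher, Matn2, Matn3 and Tgfbi lower) and 5 scaled (these 4, and Smoc1 lower). Of all 9916 loci it called 358 unscaled and 269 scaled. It kept the genes that passed the filter on all 8 libraries. Matn3 reached 1 FPKM in every wildtype library but among the Has-tKO libraries only in Has-tKO 4.

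Promoters were read for the genes on the list, as the stretch from 250 before to 50 after the annotated start, from RefSeq on mouse build GRCm38.p6. This build is not that of the table, and the sequences serve only to show what stands at these starts. Of the 36 genes 24 had an entry, with 36 starts in all. Shown are Tgfbi (chr13:56609336-56609635, plus strand), 1 of 3 listed starts of Efemp2 (chr19:5474440-5474739, plus strand) and Loxl4 (chr19:42612757-42613056, minus strand), all 5′ to 3′, as the called genes with an entry and 1 gene whose Has-tKO libraries were all higher. Capitals mark GC boxes (GGGCGG, on either strand, overlapping copies run together), the element that Sp1 family factors bind.
Tgfbi: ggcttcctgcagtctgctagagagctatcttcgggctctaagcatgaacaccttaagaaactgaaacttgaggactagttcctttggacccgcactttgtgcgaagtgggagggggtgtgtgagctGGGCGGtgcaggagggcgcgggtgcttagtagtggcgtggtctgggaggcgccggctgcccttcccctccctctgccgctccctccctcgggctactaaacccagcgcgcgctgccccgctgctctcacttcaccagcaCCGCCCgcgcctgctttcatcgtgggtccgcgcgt
Efemp2: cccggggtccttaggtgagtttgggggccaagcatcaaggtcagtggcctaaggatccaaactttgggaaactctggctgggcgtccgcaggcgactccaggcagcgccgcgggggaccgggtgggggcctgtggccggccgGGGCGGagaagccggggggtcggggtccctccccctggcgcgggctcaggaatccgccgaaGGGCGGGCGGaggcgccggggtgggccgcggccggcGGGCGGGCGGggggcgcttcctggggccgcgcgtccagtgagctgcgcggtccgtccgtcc
Loxl4: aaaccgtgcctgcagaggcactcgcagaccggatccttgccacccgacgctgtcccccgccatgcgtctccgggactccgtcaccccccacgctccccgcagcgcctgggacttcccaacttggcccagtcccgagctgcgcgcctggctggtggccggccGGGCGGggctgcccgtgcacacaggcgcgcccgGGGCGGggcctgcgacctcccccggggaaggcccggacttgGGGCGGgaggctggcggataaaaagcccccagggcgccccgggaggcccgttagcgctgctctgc
All 3 stretches hold at least 2 GC boxes, and their GC content was 63.3%, 76.0% and 75.0%. Over the starts of the group 23 of 36 (63.9%) hold a GC box, in 18 genes, against 35.7% of 32851 mouse promoters of this length. The 32851 were not limited to genes detected in these libraries, and no share per gene was computed for them. Whether the difference is particular to these genes was not tested. The starts of a gene can overlap, as those of Efemp2 do, so the 36 are not independent. The other motifs searched on both strands were the TATA box TATAAA, in 8.33% of the group's starts and 13.6% of all, the AP-1 site TGANTCA, in 8.33% and 7.81%, and the TEAD site CATTCC, in 13.9% and 14.7%. A match is a run of letters and shows no binding.

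The levels spanned several orders of magnitude. Sparc was the highest of the 36 and alone made up 35.5% to 39.6% of their summed FPKM in Has-tKO and 41.3% to 51.8% in wildtype. Thbs4, Ltbp2, Tnc and Efemp2 followed, at means over all libraries of 292, 226, 224 and 223 FPKM. The ranges of these 4 overlapped one another. Thbs4 lay above Ltbp2 in every library, whereas all other pairs changed order between libraries, so the order of those is not resolved. Together the 36 genes held 1.94%, 2.30%, 2.58% and 1.99% of the FPKM on named loci in Has-tKO 1 to 4, against 2.74%, 2.92%, 2.47% and 2.66% in wildtype 1 to 4. Has-tKO 3 lay within the wildtype range and the other 3 Has-tKO libraries below it.

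**Figure D2:**
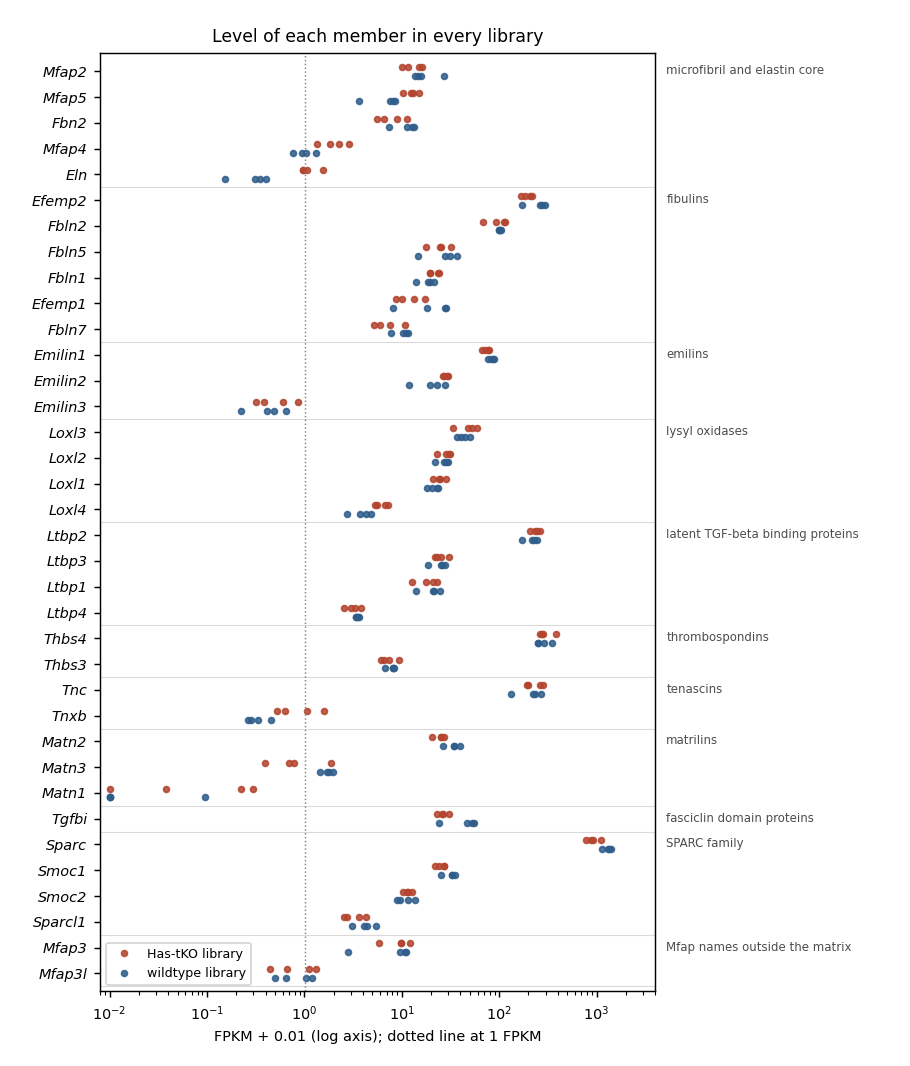
FPKM (plus 0.01, log axis) of the 36 genes in each of the 4 Has-tKO libraries (red, upper row of each pair) and 4 wildtype libraries (blue, lower row), grouped by role, with a dotted line at 1 FPKM. Sparc lies at the top of the range, and Eln, Tnxb, Emilin3 and Matn1 lie around or below the line.

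The microfibril and elastin core went in both directions. Mfap5, a small glycoprotein that decorates microfibrils, had 12.97, 12.3, 14.9 and 10.2 FPKM in Has-tKO 1 to 4, against 3.60, 8.44, 7.65 and 8.05 FPKM in wildtype 1 to 4. Every Has-tKO library was higher, and wildtype 1 was the lowest of all. The log2 fold change was 0.82 (SE 0.23, limma adjusted p = 0.0929) unscaled and 0.65 (SE 0.15, adjusted p = 0.0521) scaled. The call was made only where wildtype 1 was left out (0.58, adjusted p = 0.0416 unscaled). Mfap4, which binds elastin and microfibrils, averaged 2.09 ± 0.66 FPKM in Has-tKO and 1.002 ± 0.224 FPKM in wildtype (SD, n = 4 each), again without overlap (log2 fold change 0.61, limma adjusted p = 0.114; scaled 0.49, adjusted p = 0.136).

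Elastin transcripts were scarce. Eln had 1.55, 0.954, 1.05 and 0.965 FPKM in Has-tKO 1 to 4, against 0.341, 0.144, 0.396 and 0.2997 FPKM in wildtype 1 to 4. Each Has-tKO library was above the highest wildtype library, and Has-tKO 1 was above the other 3. In an exact two-sided permutation test of the means p was 0.0286, the smallest that 4 against 4 allows, and it was the same after scaling (scaled means 1.05 ± 0.259 FPKM in Has-tKO and 0.328 ± 0.153 FPKM in wildtype, n = 4 each). When every named locus above 0 was fitted, 27220 in all, Eln had a log2 fold change of 0.71 unscaled and 0.62 scaled with a limma adjusted p of 0.187 in both. At these levels the log2(FPKM + 1) scale understates a fold change.

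Other genes of the core pointed the other way without a call. Mfap2, a further microfibril glycoprotein and the highest of the tested core genes, had 11.5, 9.99, 15.03 and 16.3 FPKM in Has-tKO 1 to 4, against 27.2, 14.5, 13.5 and 15.8 FPKM in wildtype 1 to 4. The groups overlapped, and wildtype 1 alone lay far above the rest (log2 fold change -0.37, limma adjusted p = 0.443; scaled -0.57, adjusted p = 0.394). Without wildtype 1 the fold change was -0.16 unscaled. Fbn2, the fibrillin typical of developing tissue, averaged 8.10 ± 2.58 FPKM in Has-tKO and 11.2 ± 2.67 FPKM in wildtype. Its groups overlapped unscaled and separated after scaling (-0.62, limma adjusted p = 0.0975).

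**Figure D3:**
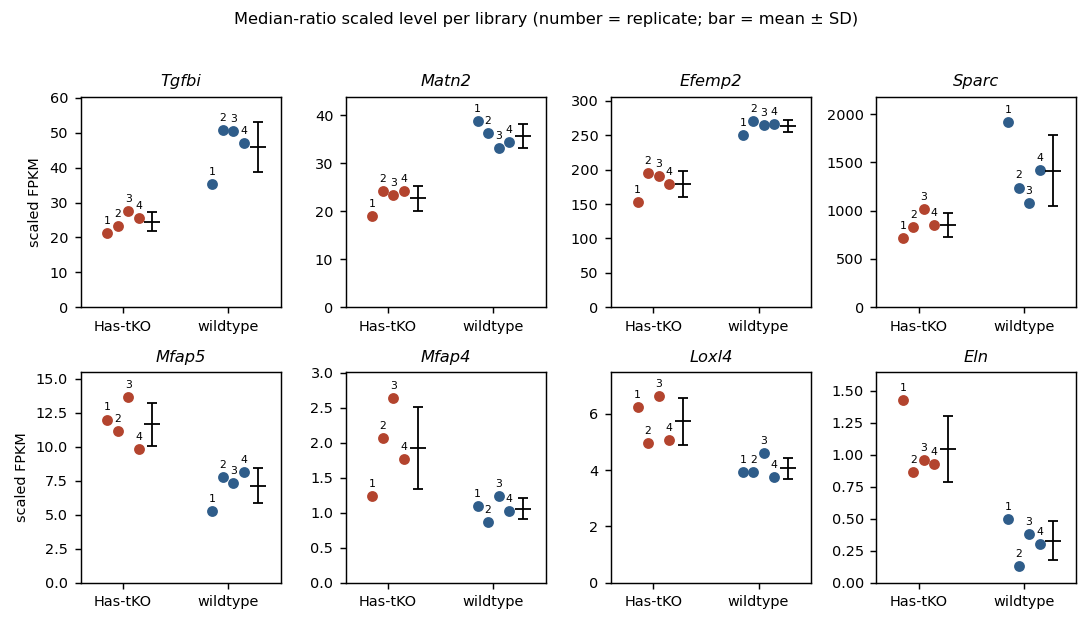
Median-ratio scaled FPKM of 8 genes in each library, Has-tKO left and wildtype right, with the replicate number at each point and the mean ± SD beside each group (n = 4). Tgfbi, Matn2, Efemp2 and Sparc lie lower in all 4 Has-tKO libraries and Mfap5, Mfap4, Loxl4 and Eln higher, and wildtype 1 is the highest library for Sparc.

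Among the fibulins, calcium-binding glycoproteins of basement membranes and elastic fibres, 5 of the 6 fold changes were negative and 1 positive in either fit. Efemp2 had 166, 216, 209 and 186 FPKM in Has-tKO 1 to 4, against 171, 293, 277 and 263.9 FPKM in wildtype 1 to 4. Wildtype 1 fell among the Has-tKO libraries and the other wildtype libraries lay above them. After scaling the values were 153, 195, 191 and 179 in Has-tKO and 250, 271, 265 and 267 in wildtype, without overlap. The log2 fold change was -0.35 (SE 0.19, limma adjusted p = 0.382) unscaled and -0.55 (SE 0.12, adjusted p = 0.0465) scaled.

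Efemp1, a close relative of Efemp2, averaged 12.4 ± 3.84 FPKM in Has-tKO and 20.5 ± 9.53 FPKM in wildtype, with a scaled log2 fold change of -0.77 (limma adjusted p = 0.17). Wildtype 1 held 8.03 FPKM, the lowest value of the 8, and without it the scaled change was -1.01 (adjusted p = 0.0472). Fbln7, a cell adhesion fibulin, averaged 7.39 ± 2.48 FPKM in Has-tKO and 10.2 ± 1.64 FPKM in wildtype, separated only after scaling (-0.62, adjusted p = 0.104), and passed only in the scaled fit without Has-tKO 2 (-0.79, adjusted p = 0.044). Fbln5, which tethers elastin to cells, averaged 24.9 ± 5.68 FPKM in Has-tKO and 27.7 ± 9.41 FPKM in wildtype. Fbln2 averaged 96.99 ± 21.7 FPKM in Has-tKO and 101 ± 2.03 FPKM in wildtype, and Fbln1, a basement membrane fibulin, 21.8 ± 2.66 FPKM in Has-tKO and 18.4 ± 3.14 FPKM in wildtype. These last 3 overlapped in both scalings, and their scaled 95% intervals (-0.71 to 0.12, -0.73 to 0.14 and -0.23 to 0.32) include 0.

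Emilins are elastin interface glycoproteins. Emilin1 had 66.1, 78.7, 77.4 and 71.8 FPKM in Has-tKO 1 to 4, against 89.5, 81.7, 76.3 and 86.1 FPKM in wildtype 1 to 4. Only wildtype 3 lay inside the Has-tKO range (log2 fold change -0.18, limma adjusted p = 0.549). After scaling the groups did not overlap, with Has-tKO lower, and Emilin1 still did not pass (-0.38, limma adjusted p = 0.298). Emilin2 averaged 28.3 ± 1.46 FPKM in Has-tKO and 20.5 ± 6.66 FPKM in wildtype, a positive change that did not pass (0.51, adjusted p = 0.281; scaled 0.31, adjusted p = 0.255). Emilin3 lay below the filter at 0.531 ± 0.244 FPKM in Has-tKO and 0.436 ± 0.177 FPKM in wildtype (exact permutation p = 0.543).

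Of the lysyl oxidases, copper enzymes that cross-link elastin and collagen, Loxl4 was the 1 without overlap between the groups. It averaged 6.19 ± 0.973 FPKM in Has-tKO and 3.87 ± 0.90 FPKM in wildtype, with every Has-tKO library higher in both scalings (log2 fold change 0.57, limma adjusted p = 0.13; scaled 0.41, adjusted p = 0.108). Loxl3, the most abundant of them, had 53.0, 58.9, 48.2 and 33.9 FPKM in Has-tKO 1 to 4, against 37.2, 49.8, 40.9 and 44.4 FPKM in wildtype 1 to 4. The groups overlapped, and Has-tKO 4 was the lowest library of all. The scaled 95% intervals of Loxl3 (-0.43 to 0.32), Loxl2 (-0.39 to 0.14) and Loxl1 (-0.27 to 0.28) include 0, and all 3 overlapped between the groups. Loxl2 averaged 28.2 ± 3.81 FPKM in Has-tKO and 26.7 ± 3.5 FPKM in wildtype, and Loxl1 24.6 ± 2.95 FPKM in Has-tKO and 21.2 ± 2.53 FPKM in wildtype. Whether Loxl4 differs from them in its response was not tested.

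The latent TGF-beta binding proteins hold TGF-beta in the matrix, except Ltbp2, which binds no TGF-beta but lies on microfibrils. Ltbp2, the highest of them, had 233, 262.8, 244 and 205 FPKM in Has-tKO 1 to 4, against 173, 245, 230 and 217 FPKM in wildtype 1 to 4. The groups overlapped (log2 fold change 0.13 unscaled and -0.071 scaled, limma adjusted p = 0.703 and 0.799). Ltbp1 averaged 18.6 ± 4.43 FPKM in Has-tKO and 20.2 ± 4.38 FPKM in wildtype, Ltbp3 25.2 ± 3.94 FPKM in Has-tKO and 24.4 ± 4.04 FPKM in wildtype, and Ltbp4 3.18 ± 0.509 FPKM in Has-tKO and 3.51 ± 0.127 FPKM in wildtype. After scaling all 4 fold changes were negative, from -0.071 to -0.31, and none passed (adjusted p 0.322 to 0.799).

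The adaptor proteins of the collagen network held both of the other calls. Tgfbi had 23.0, 25.9, 30.3 and 26.5 FPKM in Has-tKO 1 to 4, against 24.2, 55.0, 52.9 and 46.7 FPKM in wildtype 1 to 4. Wildtype 1 lay among the Has-tKO libraries and the other wildtype libraries far above them. The scaled values were 21.3, 23.4, 27.7 and 25.5 in Has-tKO and 35.3, 50.8, 50.5 and 47.1 in wildtype, with no overlap. On the log2(FPKM + 1) scale Tgfbi had the largest scaled change of the 32, although the ratio of scaled means was further from 1 for the low gene Matn3 (0.462) than for Tgfbi (0.533). Its log2 fold change was -0.87 (SE 0.14, limma adjusted p = 0.0198) scaled and -0.68 (SE 0.24, adjusted p = 0.177) unscaled. Without wildtype 1 the unscaled change was -0.94 (adjusted p = 0.00787).

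Matn2 had 20.5, 26.9, 25.5 and 25.1 FPKM in Has-tKO 1 to 4, against 26.6, 39.2, 34.7 and 34.1 FPKM in wildtype 1 to 4. Wildtype 1 lay just inside the top of the Has-tKO range and the other wildtype libraries above it. After scaling Has-tKO libraries had 19.0, 24.3, 23.3 and 24.2 and wildtype libraries 38.9, 36.2, 33.1 and 34.4, with no overlap. The log2 fold change was -0.44 (SE 0.17, limma adjusted p = 0.212) unscaled and -0.63 (SE 0.12, adjusted p = 0.027) scaled. Matn3, a cartilage matrilin, averaged 0.926 ± 0.641 FPKM in Has-tKO and 1.72 ± 0.217 FPKM in wildtype. Has-tKO 1 to 3 lay below every wildtype library and Has-tKO 4, at 1.85 FPKM, among them (scaled -0.66, limma adjusted p = 0.157). With Has-tKO 4 and wildtype 1 left out the scaled change was -0.78 (limma adjusted p = 0.0422). That fit drops the only Has-tKO library above 1 FPKM. Since Matn3 passed the filter through its wildtype libraries, the call is no support for a difference. Matn1, also of cartilage, was listed at 0 in Has-tKO 4 and in 3 wildtype libraries and reached 0.289 FPKM at most.

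Sparc, the main non-collagenous glycoprotein of bone matrix, had 780, 916, 1113 and 885 FPKM in Has-tKO 1 to 4, against 1314, 1342, 1134 and 1407 FPKM in wildtype 1 to 4. All Has-tKO libraries were lower, Has-tKO 3 and wildtype 3 by a narrow margin. The log2 fold change was -0.50 (SE 0.15, limma adjusted p = 0.118) unscaled and -0.70 (SE 0.21, adjusted p = 0.108) scaled, where wildtype 1 was at 1920 and widened the wildtype spread. Smoc1, a calcium-binding relative that modulates BMP signals, averaged 25.1 ± 2.59 FPKM in Has-tKO and 31.5 ± 4.33 FPKM in wildtype, and its scaled change was -0.51 (adjusted p = 0.0554). Sparcl1 averaged 3.29 ± 0.813 FPKM in Has-tKO and 4.24 ± 0.993 FPKM in wildtype (scaled -0.45, adjusted p = 0.144). Smoc2 averaged 11.4 ± 0.991 FPKM in Has-tKO and 10.9 ± 2.09 FPKM in wildtype, with a scaled 95% interval of -0.40 to 0.16. It is the 1 gene of the 36 that lies within 10 Mb of a targeted gene (Has1, on chromosome 17 in build GRCm38, used here for neighbourhood only).

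Among the thrombospondins and tenascins, adhesion-modulating proteins, no tested gene was called, and Thbs4 and Tnc were the abundant ones. Thbs4, a thrombospondin of tendon and muscle matrix, had 265, 274, 379 and 279 FPKM in Has-tKO 1 to 4, against 248, 345, 252 and 291 FPKM in wildtype 1 to 4. The groups overlapped, with Has-tKO 3 above the rest (log2 fold change 0.074 unscaled and -0.13 scaled, with a scaled 95% interval of -0.51 to 0.25). Thbs3 averaged 7.38 ± 1.39 FPKM in Has-tKO and 7.79 ± 0.767 FPKM in wildtype (scaled -0.26, limma adjusted p = 0.335). Tnc, tenascin C, had 200, 279, 265 and 195 FPKM in Has-tKO 1 to 4, against 131, 268, 221 and 236 FPKM in wildtype 1 to 4. Wildtype 1 was the lowest library, and the rest overlapped (0.16 unscaled and -0.043 scaled, 95% interval -0.39 to 0.30 scaled).

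Tnxb, tenascin X, a collagen-binding tenascin of connective tissue, was low and separated the groups. It averaged 0.949 ± 0.49 FPKM in Has-tKO and 0.324 ± 0.0852 FPKM in wildtype, with Has-tKO values from 0.516 to 1.60 and wildtype values from 0.255 to 0.445 (p = 0.0286 in an exact two-sided permutation test, again the smallest value it can reach). The p was 0.0857 when any 1 of the 4 wildtype libraries was left out and 0.0286 when any 1 of the Has-tKO libraries was, whereas that of Eln was 0.0286 in all 8 such tests. In the fit of every named locus its limma adjusted p was 0.43 unscaled and 0.488 scaled. Mfap3 and Mfap3l, membrane proteins matched by their name, overlapped between the groups. Mfap3 had 9.79, 12.2, 9.88 and 5.85 FPKM in Has-tKO 1 to 4, against 2.77, 10.8, 10.9 and 9.70 FPKM in wildtype 1 to 4, with wildtype 1 far below the rest. Mfap3l averaged 0.874 ± 0.403 FPKM in Has-tKO and 0.836 ± 0.329 FPKM in wildtype.

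**Figure D4:**
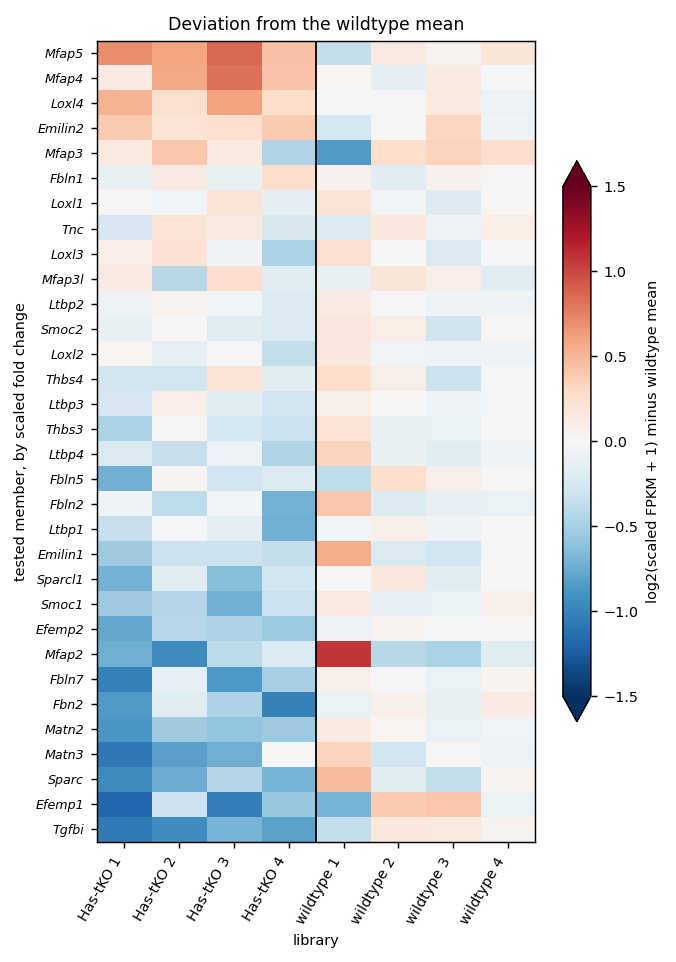
Deviation of each tested gene from its wildtype mean, as log2(scaled FPKM + 1), in the 4 Has-tKO libraries (left) and 4 wildtype libraries (right), ordered by scaled fold change from Mfap5 at the top to Tgfbi at the bottom. The lower rows are blue in nearly all Has-tKO libraries, and wildtype 1 departs from the other wildtype libraries in both directions, with Mfap2 at the red end and Mfap3 and Efemp1 at the blue end.

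The heat map of deviations shows how the libraries vary within a genotype. The median deviation of the 32 tested genes from their wildtype means, after scaling, was -0.28, -0.13, -0.15 and -0.31 in Has-tKO 1 to 4, against 0.077, 0.008, -0.070 and -0.011 in wildtype 1 to 4. Every Has-tKO library was below every wildtype library on this measure. Unscaled, the values were -0.072, 0.098, 0.063 and -0.18 in Has-tKO and -0.31, 0.21, 0.089 and 0.054 in wildtype, and the groups overlapped.

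Genes that act on the same fibres were counted from lists of their receptors, growth factors, maturation factors and proteases. None passed unscaled, where 1.77% of all tested loci did, and 4 passed after scaling, where 2.82% did. Of 9 tested receptors, 1 rose: Itga4, an integrin subunit of fibronectin and VCAM1 receptors carried by leukocytes, averaged 4.29 ± 0.971 FPKM in Has-tKO and 1.67 ± 0.952 FPKM in wildtype (scaled log2 fold change 0.92, limma adjusted p = 0.0488; unscaled 1.04, adjusted p = 0.055). Of 3 TGF-beta ligands, 1 fell: Tgfb2 averaged 5.45 ± 1.75 FPKM in Has-tKO and 10.2 ± 2.42 FPKM in wildtype (scaled -0.997, adjusted p = 0.0339; unscaled -0.82, adjusted p = 0.0896), while Tgfb1 and Tgfb3 had scaled changes of 0.32 and 0.007 that did not pass.

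Of 11 tested assembly and maturation genes, 1 fell: Pcolce2, an enhancer of procollagen cleavage, averaged 3.01 ± 1.43 FPKM in Has-tKO and 6.12 ± 1.30 FPKM in wildtype (scaled log2 fold change -1.04, limma adjusted p = 0.0389; unscaled -0.88, adjusted p = 0.0966). Of 4 tested elastin-degrading proteases, 1 rose: Mmp12, the macrophage elastase, averaged 8.79 ± 1.71 FPKM in Has-tKO and 4.17 ± 1.49 FPKM in wildtype (scaled 0.79, adjusted p = 0.0468; unscaled 0.95, adjusted p = 0.0579). Mmp12 and Itga4 are both genes of myeloid cells. The myeloid marker sum was 690 to 1120 FPKM in Has-tKO and 405 to 701 FPKM in wildtype, as given above, with Has-tKO 3 inside the wildtype range. Its part in these values was not tested. The number called over these lists ranged from 0 to 3 when single libraries were left out, with and without scaling. Those fits called from 10 to 349 of all 9916 loci.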

How the data were processed

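Libraries were made from 100 ng RNA by depletion of ribosomal RNA and Nextera tagmentation, which keeps no strand, per the labels' protocols. The authors deposited 1 table of FPKM values. The submitters' processing notes name the tools fastp, HISAT2, StringTie, DESeq2 and bcl2fastq and 2 builds, GRCm39 and hg38; the sources used here give no versions and no role for hg38. Ratios of low FPKM values between wildtype 1 and each of the other 7 libraries showed no steps worth 1 read, so the depth and the counting error of every value are unknown. Without strand, reads of overlapping or antisense genes cannot be told apart, and a merged locus can hold a neighbour's reads.

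Columns were matched to libraries by their header names. The 9916 named loci that reached 1 FPKM in 4 or more libraries were fitted as log2(FPKM + 1) against genotype with limma 3.58.1 (empirical Bayes with intensity trend, R 4.3.3). Tests were two-sided, p-values were adjusted by Benjamini-Hochberg over all of these loci, and the threshold was 0.05. Each fold change is Has-tKO minus wildtype. The fit was repeated after dividing by median-ratio size factors from 7435 loci; scaled FPKM are the divided values. Genes below the filter were tested singly by exact permutation. On simulated data for Has-tKO against wildtype with 9916 genes, 22%, 70%, 90% and 100% of genes changed 1.5-, 2-, 3- and 4-fold were recovered.

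Values in every library are given for genes that passed in either fit and for the tested gene with the highest mean of each role; Mfap5 and Eln were added after their values were seen. Of names on several loci (67 names, 153 loci) the locus with the highest mean was used. The genes and lists were chosen with earlier results of these data known. Alternatives were other scalings, filters, pseudocount 0.1, no trend, a replicate block and left-out libraries. Each library is 1 mouse. Promoters came from RefSeq (GRCm38.p6) without chromosome 18, matched by symbol. Neighbourhood came from the GRCm38 gene positions. No build was converted.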

Additional observations from a re-analysis of the deposited data

Results flagged for a closer look

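Of 72 groups of 4 libraries (36 genes in 2 genotypes), 7 had a library whose gap to its nearest neighbour took up more of the group's range than Dixon's 95% critical value allows. Chance gives about 1 in 20 such groups. Wildtype 1, whose size factor was 0.684, was the library in 4 of the 7. Its Mfap2 level was 27.2 FPKM, above the other wildtype libraries, and its levels of Mfap5 (3.60 FPKM), Thbs3 (6.65 FPKM) and Mfap3 (2.77 FPKM) lay below them. The part of the library's scale in these values was not tested.

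In Has-tKO 1, Eln was at 1.55 FPKM, where the other 3 Has-tKO libraries had 0.954 to 1.05 FPKM. In Has-tKO 3, Thbs4 was at 379 FPKM, where the others had 265 to 279 FPKM. In wildtype 3, Matn1 was at 0.0845 FPKM, and the other 3 wildtype libraries were listed at 0.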

How the results depend on the processing

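The number of changed genes, 176 in the unscaled fit, was 280 with median-ratio scaling, 273 with scaling to the sum over named loci, 111 with a pseudocount of 0.1 and 2 with no filter on low values. With a filter of at least 5 FPKM it was 166 of 4059 tested loci. With wildtype 1 and Has-tKO 4 left out it was 358 unscaled and 269 scaled, and it ran from 10 to 349 when single libraries were left out. Among the elastic fibre and matricellular genes, 0 in the unscaled fit, it was 3 with median-ratio scaling, 4 unscaled and 5 scaled with both libraries out, and 0 to 5 with single libraries out. Over the related lists, 0 unscaled, it was 4 with median-ratio scaling, 2 with the named sum, 1 with a filter of at least 5 FPKM, 4 unscaled and 3 scaled with both libraries out, and 0 to 3 with single libraries out.

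Replicate numbers name separate mice. The deviations of libraries that share a number correlated at -0.083, 0.311, -0.121 and -0.059 unscaled, and at -0.104, 0.322, -0.125 and -0.082 scaled. By the scaled deviations 1 of 4 numbers was its own best match, so the numbers were not used as pairs. With the replicate block 0 of the elastic fibre and matricellular genes were called unscaled and 1 scaled (Tgfbi, -0.87, limma adjusted p = 0.049). Of all 9916 loci this block called 147 unscaled and 40 scaled, and over the related lists 2 unscaled and 0 scaled.

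Fold changes near 0 changed sign with the setting, and the cause was not tested. Under median-ratio scaling, with the same values in the block, they were -0.054 for Loxl3, -0.122 for Loxl2, -0.071 for Ltbp2, -0.148 for Ltbp3, -0.131 for Thbs4, -0.043 for Tnc, -0.118 for Smoc2 and -0.055 for Mfap3l. With the named sum, Ltbp3 was at -0.021 and Mfap3l at -0.005. With both libraries out, Fbln2 was at 0.056, Ltbp3 at -0.006 and Mfap3l at -0.023 unscaled, and scaled Fbln1 was at -0.010, Ltbp3 at -0.082, Thbs4 at -0.036, Tnc at -0.052, Smoc2 at -0.037, Mfap3 at -0.057 and Mfap3l at -0.054. With single libraries out the ranges were -0.025 to 0.312 (Fbln1), -0.38 to 0.065 (Fbln2), -0.426 to 0.053 (Fbln5), -0.059 to 0.27 (Loxl1), -0.169 to 0.172 (Loxl2), -0.141 to 0.305 (Loxl3), -0.401 to 0.046 (Ltbp1), -0.11 to 0.199 (Ltbp2), -0.23 to 0.118 (Ltbp3), -0.228 to 0.415 (Mfap3), -0.155 to 0.143 (Mfap3l), -0.22 to 0.172 (Smoc2), -0.244 to 0.172 (Thbs4) and -0.119 to 0.285 (Tnc), and -0.0112 to 0.169 FPKM for the difference of Emilin3. The ranges of the fold changes span the unscaled and scaled fits together, and that of Emilin3 the unscaled values only. With single libraries out, Ltbp2 was positive in every unscaled fit (0.03 to 0.199) and negative in every scaled fit (-0.11 to -0.021). For the genes below the filter, the fit of every named locus, and its scaled form, were chosen after seeing the data.

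The depth is unknown, so no limit from counting can be given for genes near 0 such as Matn1. On simulated data 22% of 1.5-fold changes in genes above 5 FPKM were recovered by the unscaled fit, and many of the changes above are smaller than 1.5-fold. Recovery of lower genes and by the scaled fit was not simulated.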
